A study of Rattus norvegicus with 20 samples.

Results

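The choroid plexus transcriptome of lean Zucker rats that had received vehicle injections was compared with that of lean rats that had received none. The comparison held 10 of the 20 libraries of the series, 4 from vehicle-injected rats (Lean VEH, numbers 13 to 16) and 6 from untreated rats (Lean, numbers 1 to 6). Of 32883 genes listed, the 12081 with a mean of at least 1 TPM (transcripts per 1000000 transcripts) over the 10 libraries were tested. All 10 rats were female Zucker rats of 16 weeks, heterozygous for the fa allele of the leptin receptor (+/fa), kept on normal chow. The vehicle was sesame oil, given by repeated injection as the control for testosterone propionate in oil, and the untreated rats were not injected. The choroid plexuses of the lateral ventricles and of the fourth were collected and sequenced as bulk tissue, so that epithelium, vessels, stroma and immune cells were measured together. The vehicle-injected rats carried a different set of numbers and were the control of a separate experiment. Injection, cohort and everything else that differed between the sets of rats therefore cannot be told apart in any value below.

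The choroid plexus is a folded epithelium around a core of fenestrated capillaries and loose stroma. Its epithelial cells secrete cerebrospinal fluid (CSF) by moving sodium, chloride and bicarbonate across the cell, and they release transthyretin, the carrier of thyroxine and of the retinol-binding protein. The stroma holds fibroblasts, mural cells and macrophages, and it lies in contact with the blood, since the capillaries have no blood-brain barrier.

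The tissue label was borne out by its markers. All 12 epithelial markers with a symbol at hand passed the filter on low values, and Ttr, which encodes transthyretin (ENSRNOG00000016275), was by far the most abundant transcript in every library. Ttr took between 31.2% and 39.0% of all TPM in the untreated rats (median 33.5%) and between 27.2% and 30.5% in the vehicle-injected rats. The groups did not overlap, and the means were 34.0% ± 2.74 (SD, n = 6) and 28.9% ± 1.44 (SD, n = 4; exact permutation test, two-sided, p = 0.00952). The ribosomal protein genes together took 5.21% ± 0.37 (SD, n = 6) and 4.24% ± 0.28 (SD, n = 4) of all TPM, with some overlap between the groups (exact permutation test, two-sided, p = 0.00952). The 13 protein-coding genes of the mitochondrial genome took 8.97% ± 0.35 (SD, n = 6) and 9.55% ± 0.56 (SD, n = 4), with overlapping groups (exact permutation test, two-sided, p = 0.081). That overlap rests on Mt-atp8, which is listed at 0 in rats 14 and 15. Without it the other 12 genes took 6.97% to 7.70% of all TPM in the untreated rats and 8.31% to 9.59% in the vehicle-injected rats, with no overlap (exact permutation test, two-sided, p = 0.00476, the smallest this design allows). The files give no read counts, so the depth behind each value is unknown. The number of genes above 0 was 15906 to 16198 in the untreated and 14968 to 16772 in the vehicle-injected rats, with the lowest number in vehicle-injected rat 14.

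The ratio of the deposited FPKM to TPM values gave the mean transcript length of each library, weighted by abundance. Where the quantification used an effective length, the value depends on fragment size too, which is not known here. This mean length was 820 to 902 bases in the untreated rats (median 864) and 1005 to 1086 bases in the vehicle-injected rats. Every vehicle-injected library was above every untreated one, with means of 1035 ± 37.8 (SD, n = 4) and 864 ± 29.4 bases (SD, n = 6; exact permutation test, two-sided, p = 0.00476, the smallest that the 210 assignments allow). Adjusted over the 9 library measures compared, p was 0.0171 for Ttr and for the ribosomal share, 0.121 for the mitochondrial share and 0.0143 for length (exact permutation test, Benjamini-Hochberg adjustment). In a principal component analysis of the 10 libraries the first component held 60.0% of the variance and separated the groups, and the second held 8.7% and set vehicle-injected rat 14 apart.

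**Figure D1:**
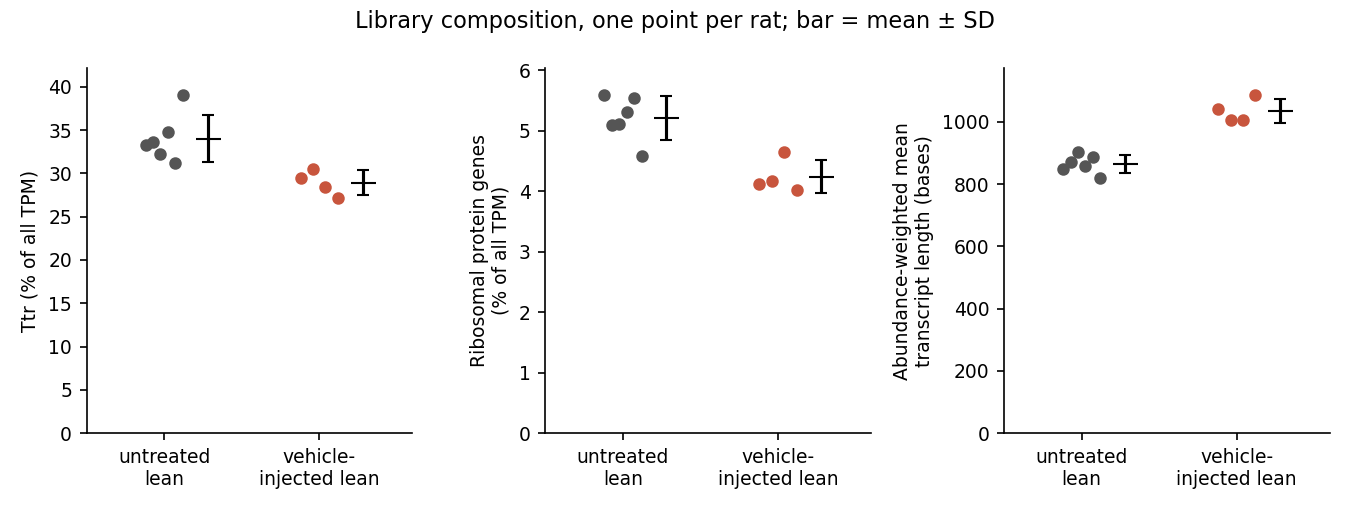
Share of all TPM taken by Ttr (left, %), share taken by ribosomal protein genes (middle, %) and abundance-weighted mean transcript length (right, bases) in the 6 untreated and 4 vehicle-injected lean rats, with points for single rats and the mean ± SD beside them. Ttr and length do not overlap between the groups, while the ribosomal share does for one rat of each group.

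Most of the tested transcriptome differed. Of 12081 genes, 7883 (65.3%) were called at an adjusted p below 0.05 (limma on log2(TPM + 0.1), Benjamini-Hochberg adjustment), 5936 higher (49.1%) and 1947 lower (16.1%) in the vehicle-injected rats. The values of the groups did not overlap for 6120 genes (50.7%). The largest differences were more often decreases: 1533 called genes were higher and 604 lower by at least 1 on the log2 scale, whereas 21 were higher and 153 lower by at least 3. The balance of directions depended on the scale. TPM are shares of a fixed total, and the median of all tested genes lay at 0.28 (log2) above the untreated rats. When each library was instead scaled by the median ratio of its genes, the median was -0.03, and 3851 genes were higher (31.9%) and 4191 lower (34.7%). By at least 1 on the log2 scale, 672 called genes were then higher and 808 lower. Differences are given below as deposited, followed where they matter by the value after this scaling, named the scaled difference. Symbols were at hand for 2570 of the tested genes, chiefly the most abundant, and 1662 of these were called, 994 higher and 668 lower. All list members below come from these genes, so the shares among all genes are not matched to them. Decreases were more frequent among genes with a symbol. After scaling, 467 of 606, 406 of 606, 301 of 605 and 169 of 606 were called lower in groups from short to long genomic span, described below.

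Genes of the stroma and the vessel wall were among those with large decreases. In bulk tissue, fewer cells of a type and less RNA per cell cannot be told apart. Mgp (ENSRNOG00000005695) encodes matrix Gla protein, an inhibitor of calcification made by fibroblasts and vascular cells. Its level was 651 to 790 TPM in the untreated rats (median 741) and 41.2, 23.7, 27.0 and 31.4 TPM in vehicle-injected rats 13 to 16. All 4 lay more than an order of magnitude below the lowest untreated rat, and the difference was -4.58 ± 0.12 (log2, SE; limma, adjusted p = 1.383e-10). Coch (ENSRNOG00000005286), which encodes the extracellular matrix protein cochlin, was at 54.2 to 78.4 TPM in the untreated rats (median 62.1) and at 2.49, 1.65, 2.37 and 2.09 TPM in the vehicle-injected rats. The ranges were far apart, with a difference of -4.87 ± 0.13 (log2, SE; limma, adjusted p = 1.383e-10).

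Of 6 fibroblast and stromal markers tested, 3 fell and 3 rose (among all genes 49.1% higher and 16.1% lower as deposited, 31.9% and 34.7% after scaling). Dcn, the matrix proteoglycan decorin (ENSRNOG00000004554), was at 78.2 to 105 TPM in the untreated rats (median 94.7) and at 11.4, 7.86, 11.4 and 13.1 TPM after vehicle, with no overlap. Its fall was 3.08 on the log2 scale, and Dpt (dermatopontin, another matrix protein) and Col1a1 (a chain of type I collagen) fell by 4.21 and 3.10. Col6a1, a chain of type VI collagen, fell by 3.56. Col1a1 and Col6a1 were below 1 TPM in every vehicle-injected rat and passed the filter of 1 TPM only through the untreated rats. Pdgfra, a growth factor receptor of fibroblasts and of oligodendrocyte precursors, moved the other way. It was at 21.3 to 29.6 TPM in the untreated rats and at 39.3, 69.3, 74.4 and 77.2 TPM in the vehicle-injected rats, all higher than every untreated rat, and rose by 1.31. Igf2, a growth factor made by the choroid plexus and its stroma, rose by 0.48 (0.17 scaled) from 1410 ± 97.5 TPM (SD, n = 6) to 1962 ± 154 TPM (SD, n = 4). The third was Ogn (osteoglycin), at 0.25 as deposited (limma, adjusted p = 0.0414) but -0.06 after scaling, where it was not called, and the call was also lost without any 1 of rats 2, 3, 5, 6, 13 and 16. Collagen chains were divided too: Col27a1 rose by 2.26 and Col8a1 by 0.93, and 7 of 9 collagen genes tested were called higher and 2 lower as deposited, against 4 and 2 after scaling.

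Both endothelial markers tested fell, against 16.1% lower among all genes (34.7% after scaling). Plvap (ENSRNOG00000017676) encodes the diaphragm protein of fenestrated capillaries, and was at 40.0 to 51.1 TPM in the untreated rats (median 46.9) and at 10.6, 2.90, 1.68 and 5.85 TPM in the vehicle-injected rats. The highest vehicle-injected value, in rat 13, was below every untreated value, and the fall was 3.41 on the log2 scale. Eng, the TGF-beta co-receptor endoglin, fell by 2.76. The 2 markers summed to 61.0 ± 5.69 TPM (SD, n = 6) in the untreated and 7.70 ± 5.34 TPM (SD, n = 4) in the vehicle-injected rats. Neither was listed at 0 in any library.

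Of 3 mural cell markers, 2 fell, again against 16.1% lower among all genes (34.7% after scaling). Rgs5, a regulator of G protein signalling typical of pericytes (ENSRNOG00000002730), was at 91.7 to 119 TPM in the untreated rats (median 94.4) and at 9.25, 1.68, 2.74 and 8.36 TPM in the vehicle-injected rats. The groups did not overlap, and the difference was -4.47 ± 0.38 (log2, SE). Tagln, an actin-binding protein of smooth muscle, fell by 3.96 on the log2 scale. Myh11, the smooth muscle myosin heavy chain, was at 8.50 ± 1.34 TPM (SD, n = 6) against 7.70 ± 1.04 TPM (SD, n = 4), a difference of -0.14 that was not called as deposited (limma, adjusted p = 0.363) and was called at -0.44 after scaling. Vim, the intermediate filament vimentin of mesenchymal and ependymal cells, fell by 2.43. Dynlrb2, the other ependymal marker tested, was at 160 ± 23.2 TPM (SD, n = 6) against 148 ± 16.0 TPM (SD, n = 4), with overlapping groups. It was not called as deposited (-0.10; limma, adjusted p = 0.417), though it was called lower after scaling (-0.41). Of the listed endothelial markers 2 of 12 had a symbol at hand, of the mural ones 3 of 10 and of the stromal ones 6 of 14. How much of the other differences moved with these cell types was not tested.

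**Figure D2:**
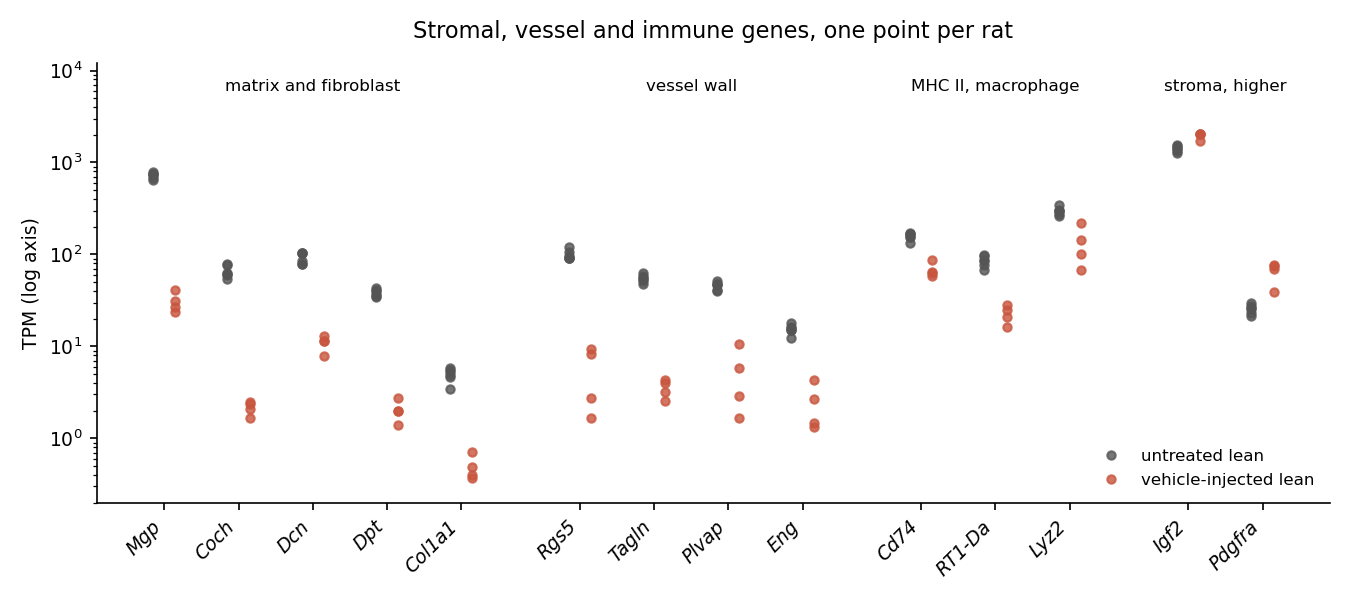
TPM (log axis) of 14 genes of stroma, vessel wall and immune cells, with 1 point for each of the 6 untreated and 4 vehicle-injected lean rats. The 14 genes are a selection, and Myh11, Ogn and RT1-Db1, whose groups overlap, are not shown. For every gene shown the groups are apart, with Igf2 and Pdgfra higher and the other 12 lower in the vehicle-injected rats.

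Of 11 listed genes of antigen presentation through MHC class II, 3 had a symbol at hand and were tested. All 3 fell, against 16.1% lower among all genes (34.7% after scaling, where the 3 were lower too). Cd74, the invariant chain that guides class II molecules (ENSRNOG00000018735), was at 134 to 171 TPM in the untreated rats (median 161) and at 87.0, 58.9, 64.7 and 63.5 TPM in the vehicle-injected rats. The groups did not overlap, and Cd74 fell by 1.21 on the log2 scale. The class II chains RT1-Da and RT1-Db1 fell by 1.92 and 1.60, RT1-Db1 with overlap between the groups. Lyz2, the lysozyme of macrophages and the only marker of 14 with a symbol, was at 259 to 341 TPM in the untreated rats and at 142, 67.2, 220 and 102 TPM after vehicle, and fell by 1.29. Haemoglobin transcripts, the mark of blood left in the tissue, were not called as deposited in any of 3 genes, and Hba-a1 (-0.83; limma, adjusted p = 0.0219) and Hba-a2 (-0.85; adjusted p = 0.0108) were called lower after scaling. Hba-a1 was at 1685 to 3045 TPM in the untreated rats and at 3303, 1278, 1287 and 1213 TPM in rats 13 to 16, so that one vehicle-injected rat was above and the other 3 below all untreated rats. The difference of Hba-a1 was -0.53 (limma, adjusted p = 0.0898) and without rat 13 it was -0.87 (adjusted p = 0.000351). Hba-a2 was at -0.55 (limma, adjusted p = 0.0524) and at -0.86 without rat 13 (adjusted p = 9.985e-05). It was also called lower without rat 1, in a fit of all 20 libraries and at a minimum mean of 10 TPM. Hbb was at -0.04 (limma, adjusted p = 0.901). Of glial markers, Gja1, a gap junction protein of astrocytes that other cells also make, fell by 1.74 from 6.39 ± 0.75 TPM (SD, n = 6) to 1.91 ± 0.59 TPM (SD, n = 4). Glul, glutamine synthetase, the more abundant of the 2 astrocyte markers tested, was at 131 ± 8.40 TPM (SD, n = 6) against 124 ± 4.89 TPM (SD, n = 4) and was not called as deposited (-0.07; limma, adjusted p = 0.326), though it was after scaling (-0.38). Of 2 genes with a symbol listed as striatal markers, the phosphatase regulator Ppp1r1b fell by 0.46 (-0.76 scaled), from a mean of 581 to 424 TPM. Penk, the other, averaged only 0.61 and 0.40 TPM and did not pass the filter. The hindbrain factor Zic1 was higher by 0.36 as deposited (limma, adjusted p = 0.0202) and at 0.05 and not called after scaling. Which cells made Ppp1r1b and Zic1 was not tested. General neuronal, lymphocyte and pineal markers had no symbol at hand and were not analysed here.

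Epithelial markers moved the other way. Of 12, 10 were called higher and 1 lower, with a median of 0.64 against 0.28 for all genes, and after scaling 9 were higher and 2 lower with a median of 0.33 (among all genes 49.1% higher and 16.1% lower as deposited, 31.9% and 34.7% after scaling). Kl (ENSRNOG00000001092), which encodes the anti-ageing protein klotho that the choroid plexus releases into CSF, was at 346 to 480 TPM in the untreated rats (median 416) and at 890, 876, 894 and 922 TPM in the vehicle-injected rats. The vehicle-injected rats were all higher and close to each other, and the difference was 1.12 ± 0.08 (log2, SE; limma, adjusted p = 2.232e-07; 0.82 scaled). Kcnj13, the inwardly rectifying potassium channel Kir7.1 (ENSRNOG00000016057), was at 458 to 769 TPM in the untreated rats (median 626) and at 1245, 1299, 1250 and 1388 TPM after vehicle, again with no overlap. It rose by 1.08, and the homeobox factor Otx2, which maintains choroid plexus identity, rose by 0.87 (0.56 scaled), though it was not called in a fit of all 20 libraries (limma, adjusted p = 0.0877). The tight junction protein Cldn2 rose by 0.49 (0.18 scaled). Ttr, the most abundant marker, was the only one called lower, at -0.23 as deposited (limma, adjusted p = 0.0368) and -0.54 after scaling. Its call was lost without any 1 of rats 1, 2, 3, 4, 6, 15 and 16, with a lower or no filter on low values, and after quantile normalisation, where its difference was 0 by construction.

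Of 16 genes of the CSF secretion machinery, 13 rose and none fell as deposited, and 9 rose and 3 fell after scaling, against 49.1% higher and 16.1% lower among all genes as deposited and 31.9% and 34.7% after scaling. Atp1b2, a beta subunit of the sodium pump, rose by 0.99 (0.68 scaled). The basolateral anion exchanger Slc4a2 rose by 0.72 (0.41 scaled) and the luminal sodium bicarbonate cotransporter Slc4a5 by 0.69 (0.38 scaled). The luminal sodium, potassium, chloride cotransporter NKCC1 (Slc12a2) rose by 0.44, of which 0.13 remained after scaling (limma, adjusted p = 0.0441). The water channel Aqp1 was at 0.13 as deposited (limma, adjusted p = 0.107) and -0.18 after scaling. It was called lower after scaling, but higher after quantile normalisation (0.20; limma, adjusted p = 0.01155) and without untreated rat 5 (0.16; adjusted p = 0.0464). Carbonic anhydrase 2 (Car2) and the potassium channel subunit Kcne2 were not called as deposited, at -0.10 and -0.02, and were both called lower after scaling, at -0.41 and -0.33. These 16 genes were thus unequal among themselves, the largest difference within the list being that of the channel Kcnj13.

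Of 18 secreted proteins tested, 10 were higher and 5 lower as deposited and 7 were higher and 7 lower after scaling (among all genes 49.1% higher and 16.1% lower as deposited, 31.9% and 34.7% after scaling). Tf, the iron carrier transferrin, rose by 0.84 (0.53 scaled) from 2262 ± 273 TPM (SD, n = 6) to 4033 ± 317 TPM (SD, n = 4). Clu, the extracellular chaperone clusterin, was higher by 0.44 as deposited, by 0.14 and not called after scaling (limma, adjusted p = 0.0549) and at -0.03 after quantile normalisation. Cst3, the protease inhibitor cystatin C and the most abundant transcript of the list after Ttr, fell by 0.34 (-0.65 scaled), a call lost with no filter on low values and after quantile normalisation, and Apoe, the lipid carrier apolipoprotein E, fell by 1.10. Igfbp7, a binding protein that vessels and stroma also make, fell by 1.75.

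Of 56 solute carriers tested, 33 were called higher and 7 lower as deposited, and 24 higher and 16 lower after scaling. Among all genes 49.1% were higher and 16.1% lower as deposited, and 31.9% and 34.7% after scaling. Among the 2570 genes with a symbol, 994 were higher and 668 lower as deposited. Abca4, a retinoid lipid transporter, rose by 1.04. Trpm3, a cation channel gene that hosts a microRNA of the choroid plexus in its introns, rose by 1.41. Slc4a8, a sodium-driven bicarbonate transporter, was low in the untreated rats (0.39 to 0.97 TPM) and at 3.28, 3.29, 3.16 and 4.44 TPM in the vehicle-injected rats, with no overlap and a difference of 2.31. It passed the filter of 1 TPM only through the vehicle-injected rats, as every untreated rat was below that level. The monocarboxylate carrier family member Slc16a6 rose by 1.80 and the sulphate transporter Slc13a4 by 1.08, while the mitochondrial nucleotide carrier Slc25a33 fell by 0.74.

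Prlr, the prolactin receptor (ENSRNOG00000057557), was at 127 to 196 TPM in the untreated rats (median 141) and at 245, 273, 289 and 247 TPM in the vehicle-injected rats. All vehicle-injected rats were higher, and Prlr rose by 0.79 (0.48 scaled). Lepr, the leptin receptor whose fa allele all these rats carried in 1 copy (ENSRNOG00000023664), was at 32.3 to 112 TPM in the untreated rats (median 37.7) and at 58.8, 359, 43.1 and 53.0 TPM in the vehicle-injected rats. A single rat, number 14, held the high value and the groups overlapped, and Lepr was not called (0.81 ± 0.53, log2, SE; limma, adjusted p = 0.199).

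Heat shock proteins and their cochaperones were higher in the vehicle-injected rats in 16 of 18 genes tested as deposited, with 1 lower, and in 11 with 2 lower after scaling (among all genes 49.1% higher and 16.1% lower as deposited, 31.9% and 34.7% after scaling). The list's median was 0.71 (0.40 scaled). These proteins fold and protect other proteins, and many are switched on together by heat shock factor 1 when proteins are damaged or the temperature rises. Chordc1 (ENSRNOG00000026643), a cochaperone of HSP90, was at 9.30 to 16.7 TPM in the untreated rats (median 11.2) and at 32.5, 42.4, 53.8 and 49.0 TPM after vehicle, with no overlap. Its difference was 1.85 ± 0.18 (log2, SE; limma, adjusted p = 1.7338e-06; 1.55 scaled). Hsph1 (ENSRNOG00000000902), a nucleotide exchange factor of the HSP70 system, was at 27.9 to 40.3 TPM in the untreated rats (median 36.6) and at 63.1, 79.0, 89.1 and 103 TPM in the vehicle-injected rats, all of them higher. It rose by 1.24, the related Hspa4l by 0.96, the HSP90 gene Hsp90ab1 by 0.96 and the constitutive HSP70 gene Hspa8 by 0.81 (0.51 scaled). Hspa4 and Hspd1, the mitochondrial chaperonin, were higher by 0.41 and 0.33 as deposited and were not called after scaling, at 0.11 and 0.02. Hspe1, the partner of Hspd1, was the exception at -0.37 (limma, adjusted p = 0.0481; -0.68 scaled) with overlapping groups, a call that was lost under 5 of the settings for filter, normalisation and variance and without any 1 of rats 1, 3, 4, 6, 13, 15 and 16. Cacybp was at 0.08 and not called, but was called lower after scaling (-0.23; limma, adjusted p = 0.039) and higher without rat 13 (0.19; adjusted p = 0.0319).

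The promoters of the 3 members with the largest differences are shown because most of the list was higher and heat shock factor 1 is known to act on many such genes. They are RefSeq sequences of build GRCr8, 5′ to 3′ on the gene's strand, from 250 bases before the start to 50 after it. Capitals mark every GAANNTTC or TTCNNGAA, the paired units of the heat shock element, each of which reads the same on both strands and which may overlap.
Chordc1: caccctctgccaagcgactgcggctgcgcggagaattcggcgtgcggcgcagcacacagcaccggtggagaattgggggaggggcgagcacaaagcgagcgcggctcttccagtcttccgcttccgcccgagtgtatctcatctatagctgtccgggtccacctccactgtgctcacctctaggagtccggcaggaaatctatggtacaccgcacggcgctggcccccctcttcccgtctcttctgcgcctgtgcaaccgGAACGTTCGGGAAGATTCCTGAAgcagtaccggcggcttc
Hsph1: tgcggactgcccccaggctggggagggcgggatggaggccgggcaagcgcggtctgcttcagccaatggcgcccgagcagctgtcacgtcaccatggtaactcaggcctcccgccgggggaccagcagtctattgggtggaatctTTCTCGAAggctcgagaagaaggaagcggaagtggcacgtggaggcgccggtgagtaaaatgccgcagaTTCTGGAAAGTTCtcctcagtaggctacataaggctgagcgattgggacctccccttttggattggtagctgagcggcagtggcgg
Hspa4l: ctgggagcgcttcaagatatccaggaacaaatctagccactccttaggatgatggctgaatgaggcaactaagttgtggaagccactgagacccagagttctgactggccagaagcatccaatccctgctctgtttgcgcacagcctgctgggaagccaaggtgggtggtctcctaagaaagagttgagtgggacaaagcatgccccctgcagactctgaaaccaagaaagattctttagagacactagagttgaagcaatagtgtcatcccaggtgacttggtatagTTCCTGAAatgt
They lie on chr8:23650571-23650870, chr12:10427118-10427417 and chr2:125668096-125668395, all on the plus strand, and hold 4, 3 and 1 matches. Of the 18 list members 17 had a promoter in the table. A match was present in 14 of these 17 and in 15.8% of all 33469 promoters of that length, and at least 2 matches were present in 9 of 17 and in 2.28% of all. The windows of Hspd1 and Hspe1 overlap on opposite strands, so that their shared stretch is counted for both. Hspe1, which was lower, held 3 matches, and Hsp90ab1, which rose, held none. A match is a stretch of letters and not evidence that the factor was bound. The list was made of known heat shock genes, so its larger share with matches does not bear on the difference between these rats. Whether the factor acted here was not tested.

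Of 16 chaperones and stress response factors of the endoplasmic reticulum (ER) tested, 12 were higher and 1 lower as deposited, and 7 and 4 after scaling (among all genes 49.1% higher and 16.1% lower as deposited, 31.9% and 34.7% after scaling). Hyou1 rose by 1.11, the master chaperone Hspa5 (BiP) by 0.78 (0.47 scaled) and the transcription factor Xbp1 by 0.91 (0.61 scaled), whereas the 1 called lower was Atf4, the transcription factor of the integrated stress response, which fell by 0.65. A pair of RNA-binding proteins known to be induced by cold fell. Rbm3 (ENSRNOG00000005387) was at 125 to 206 TPM in the untreated rats (median 192) and at 93.7, 53.1, 62.5 and 52.1 TPM in the vehicle-injected rats. The ranges were apart and Rbm3 fell by 1.45, and Cirbp fell by 1.32.

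Among the 29 RNA-binding and splicing genes, which include Rbm3 and Cirbp, 13 were higher and 9 lower as deposited and 6 higher and 13 lower after scaling (among all genes 49.1% higher and 16.1% lower as deposited, 31.9% and 34.7% after scaling). Srrm2 (ENSRNOG00000058561), a large scaffold of nuclear speckles, was at 18.6 to 24.7 TPM in the untreated rats (median 22.3) and at 89.7, 77.0, 79.7 and 95.6 TPM after vehicle. The vehicle-injected rats were all higher, by 1.94 ± 0.09 (log2, SE; limma, adjusted p = 9.7666e-09). The speckle protein Son rose by 1.14 and the RNA helicase Ddx17 by 1.43, while the splicing factor Srsf5 fell by 0.54 (-0.85 scaled).

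In the nuclear gene lists of translation, protein breakdown and respiration more members were called lower than higher, and many were not called. All 4 lists are read against 16.1% lower among all genes as deposited and 34.7% after scaling. Genes with a symbol, from which the members come, were more often lower, 668 of 2570 as deposited, so these shares are not matched. Of 76 cytosolic ribosomal protein genes, 57 fell and 1 was higher as deposited (72 and 0 after scaling), with a median of -0.34. Rps16 was at 1388 to 1733 TPM in the untreated rats and at 967, 935, 920 and 973 TPM in the vehicle-injected rats, with no overlap, and fell by 0.75. Several ribosomal protein genes have near-identical copies, among which the counting could divide reads, so that single members are uncertain. The 76 are counted by ID, and Rpl7a is among them under both ENSRNOG00000047737 and ENSRNOG00000049097, with the same values. Of 36 mitochondrial ribosome genes, 22 fell and 1 was higher as deposited (34 and 0 after scaling). Of 28 proteasome genes 16 fell and 2 were higher (26 and 0 after scaling), and Psmb1, a subunit of the catalytic core, fell by 0.52 (-0.82 scaled). Of 78 nuclear genes of oxidative phosphorylation, 31 fell and 4 were higher as deposited, and 68 and 1 after scaling. Cox8a, a subunit of cytochrome c oxidase, fell by 0.41 (-0.71 scaled). The antioxidant enzyme Gpx4 fell by 0.64.

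The mitochondrial genome went the other way, with 9 of 13 genes higher and 2 lower as deposited and 7 higher and 3 lower after scaling (among all genes 49.1% higher and 16.1% lower as deposited, 31.9% and 34.7% after scaling). Mt-nd5, a subunit of complex I, rose by 1.14 and Mt-nd4 by 0.85 (0.54 scaled), whereas Mt-co1, the core of cytochrome c oxidase, fell by 0.30 (-0.60 scaled), a call lost with no filter on low values. Mt-atp8 was at 14553 to 17410 TPM in the untreated rats and at 12730, 0, 0 and 11719 TPM in rats 13 to 16. A transcript listed at 0 in 2 libraries but among the most abundant in the others of the group can be a failed estimate, so no fold is given, although the fit counted the gene among the 2 lower ones. Mrpl33, of the mitochondrial ribosome, was likewise listed at 0 in rats 14 and 15 and called lower. In all, 86 tested genes were listed at 0 in at least 1 library and reached 10 TPM or more in another, 54 of them at 0 in rat 14, and 28 of the 86 were among the called genes.

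**Figure D3:**
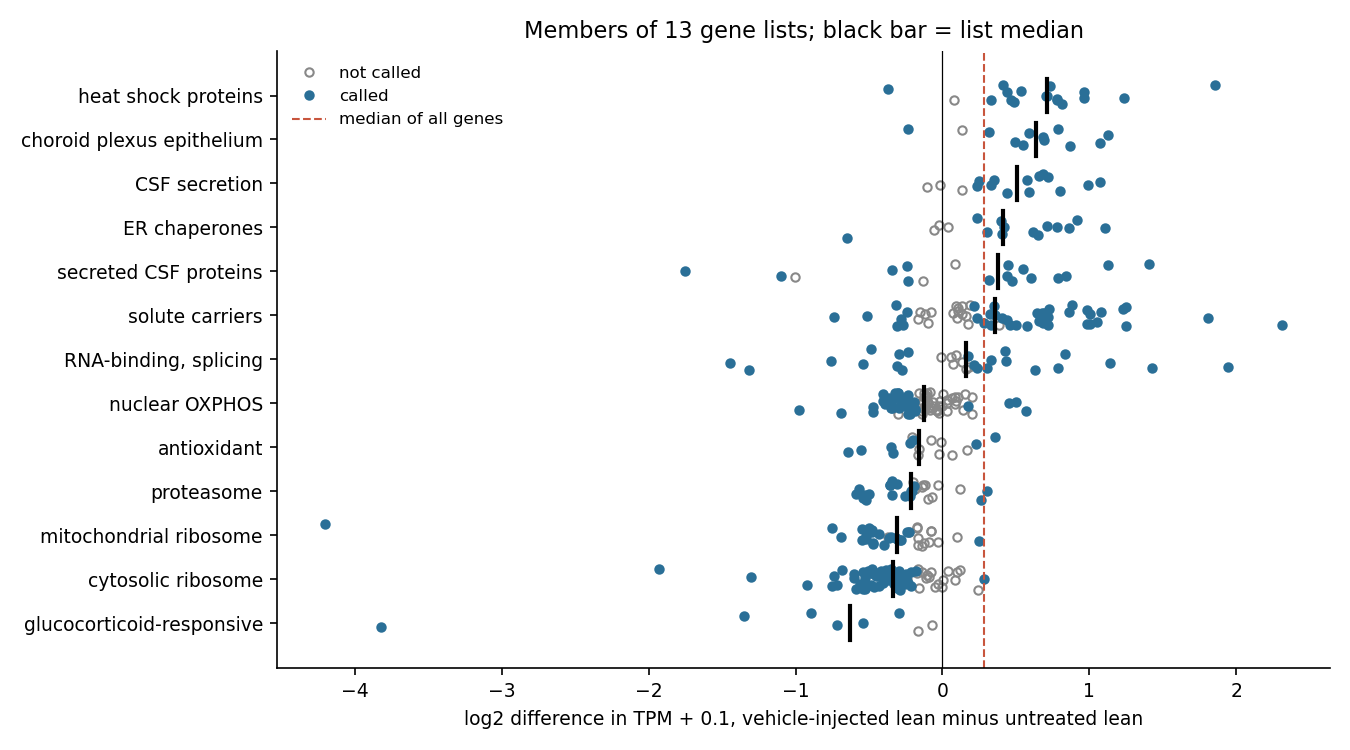
Log2 difference (TPM + 0.1, vehicle-injected minus untreated lean rats) of the members of 13 gene lists, with filled points for called and open points for other genes, a black bar for the list's median and a dashed line for the median of all genes at 0.28. Heat shock and epithelial genes lie mostly to the right of the dashed line and ribosomal, proteasome and glucocorticoid-responsive genes to its left; 1 point beyond the left end of the axis is drawn near it.

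Of 8 genes that glucocorticoids are known to induce, 6 fell and none rose as deposited, and all 8 were lower after scaling, against 16.1% and 34.7% lower among all genes. Mt2A, a metallothionein that binds zinc and also responds to metals (ENSRNOG00000043098), was at 97.3 to 257 TPM in the untreated rats (median 172) and at 11.9, 17.3, 11.3 and 7.12 TPM in the vehicle-injected rats. The groups were far apart and Mt2A fell by 3.82, with Mt1 falling by 0.90. Nfkbia, the inhibitor of NF-kappaB, fell by 1.35 and the kinase Sgk1 by 0.54 (-0.85 scaled). Of lipid genes, the desaturases Scd2 and Fads2 rose by 1.02 and 0.71 (0.41 scaled for Fads2). Of 11 tested, 5 were called higher and none lower as deposited, against 2 and 4 after scaling. The share higher as deposited was no larger than the 49.1% of all genes, while 994 of the 2570 genes with a symbol were higher. H3f3a, which encodes the replacement histone H3.3, fell by 1.10.

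Among the genes with the largest increases were 3 that carry only clone-based names. AC134224.1 (ENSRNOG00000062127) was at 8.76 to 12.4 TPM in the untreated rats (median 11.3) and at 142, 99.8, 116 and 133 TPM in the vehicle-injected rats. The ranges were about an order of magnitude apart, with a difference of 3.44 ± 0.11 (log2, SE; limma, adjusted p = 9.674e-10), and AC134224.2 and AC134224.3 were higher by 3.62 and 3.57. Their products are not named in the sources used here, and reads shared between these near neighbours in name could not be checked. Eda2r, a receptor of the TNF receptor family, rose by 2.53, the RNA-binding Rbm14 by 2.29 and the membrane and actin regulator Mtss2 by 2.13. Eda2r, at 0.43 to 1.08 TPM in the untreated rats (median 0.62), passed the filter of 1 TPM only through the vehicle-injected rats.

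The size of a gene's genomic span went with the direction of its difference. Spans from RefSeq (GRCr8) were at hand for 2423 of the 2570 genes with a symbol (94.3%). Among the 606 genes with the shortest spans (median 3590 bases) the median difference was -0.19, and 94 genes were called higher and 290 lower. In the next 606 and 605 genes by span the median was -0.04 and 0.13, and in the 606 with the longest spans (median 68732 bases) it was 0.44, with 408 genes higher and 56 lower. After scaling the medians ran from -0.50 to 0.13 in the same order, with 52 genes higher and 467 lower among the shortest and 275 higher and 169 lower among the longest. Spearman's rho across these genes was 0.45, and 0.42 over the 2202 genes left without ribosomal, proteasome and respiratory chain genes. Genes are not independent replicates and share the libraries, so the coefficient is a description and no p is given. The mean transcript length and the stromal and vessel markers moved with the groups in the same libraries, and their part in this relation was not tested.

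**Figure D4:**
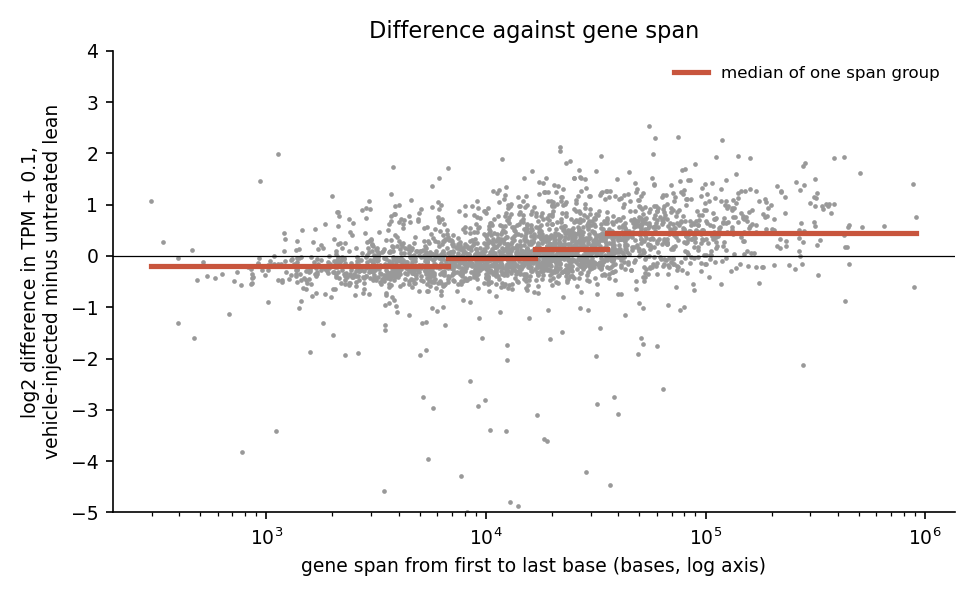
Log2 difference (vehicle-injected minus untreated lean rats, TPM + 0.1) against genomic span in bases (log axis) for 2423 genes, one point per gene, with red bars for the medians of 4 groups of 605 or 606 genes in order of span. The median is -0.19 in the group with the shortest spans and 0.44 in that with the longest; 1 gene below the axis is drawn at its edge.

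The same kind of contrast exists in obese rats (fa/fa) of the series, female and of the same age, between 4 rats that received testosterone propionate in the oil and 6 untreated rats, and it shares no library with the lean contrast. There the treatment adds testosterone to injection and cohort. Of 12089 genes tested, 7809 were called (64.6%). Among 11928 genes tested in both contrasts, 6630 were called in the same direction, which is 84.7% of those called in lean and 85.6% of those called in obese rats, and 7 were called in opposite directions. Of the 7827 genes called in lean rats and tested in both, 98.1% had a difference of the same sign in the obese contrast. Pearson's r across the 11928 genes was 0.90, given as a description.

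The values of named genes in both contrasts were as follows. Coch differed by -4.87 in the lean and -5.29 in the obese contrast, Mgp by -4.58 and -5.02, and Plvap by -3.41 and -3.43. Kl differed by 1.12 and 1.16, and Srrm2 by 1.94 and 1.83. Chordc1 differed by 1.85 and 1.02, Prlr by 0.79 and 0.27 (not called in the obese contrast; limma, adjusted p = 0.146) and Cirbp by -1.32 and -0.37. Among others, Myh11 was at -0.14 and -1.07, Sgk1 at -0.54 and -0.13 and Hba-a1 at -0.53 and 0.24. The difference between the contrasts was tested over all 20 libraries, and 1 of 12094 genes was called (0.00827%), with 1029 genes at an unadjusted p below 0.05. Chordc1, Prlr and Cirbp were not called in this test (limma, adjusted p = 0.324, 0.517 and 0.278). The called gene was Bicdl1 (ENSRNOG00000056955), an adaptor of the dynein motor. It was at 12.6 to 19.5 TPM in untreated lean rats (median 14.9) and at 19.2, 21.0, 17.5 and 19.0 TPM after vehicle, and at 23.5 ± 3.52 TPM (SD, n = 6) in untreated and 13.4 ± 2.35 TPM (SD, n = 4) in testosterone-treated obese rats. The lean groups overlapped while the obese groups did not, and the contrasts differed by 1.15 ± 0.18 (log2, SE; limma, adjusted p = 0.0477). This call was lost in 13 of the 20 fits that left out 1 rat, those without number 1, 2, 3, 4, 6, 7, 8, 11, 12, 14, 16, 18 or 19.

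**Figure D5:**
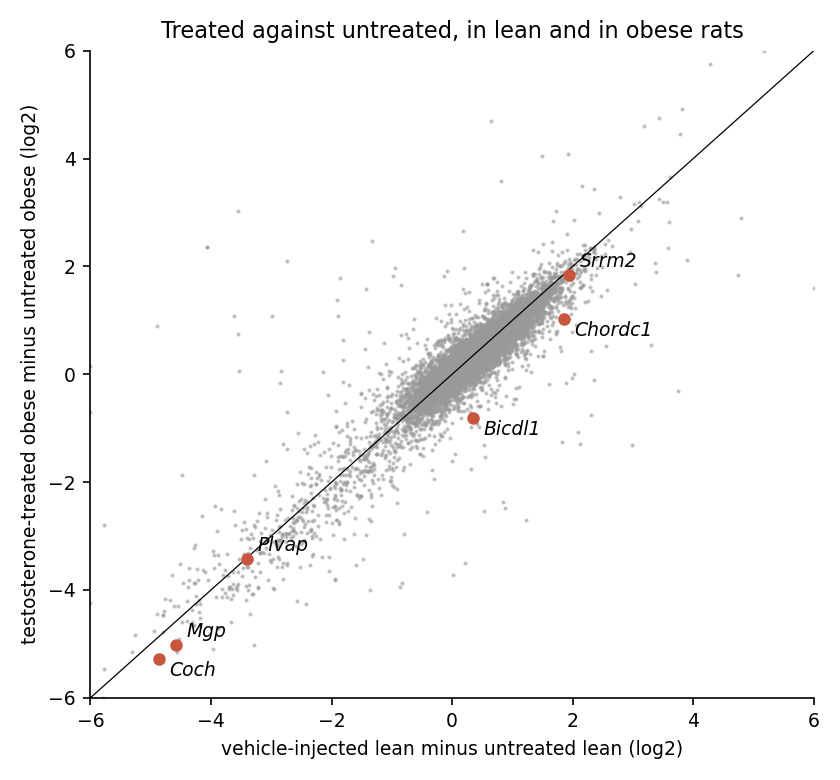
Log2 difference of 11928 genes in the lean contrast (vehicle-injected minus untreated, horizontal axis) against the obese contrast (testosterone-treated minus untreated, vertical axis), one point per gene, with the line of equal differences and 6 genes named. Coch, Mgp, Plvap and Srrm2 lie close to the line and Bicdl1 lies below it; 7 genes beyond the axes are drawn at their edge.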

How the data were processed

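Choroid plexus RNA was sequenced by the authors on a NovaSeq 6000 as paired-end reads of 150 bases (NEBNext Ultra libraries) and mapped to Rnor_6.0 with Ensembl 104. The submitters' processing notes name STAR 2.7.9a, RSEM 1.3.3 and DESeq2 3.16. The deposited TPM and FPKM values per gene and library are from the authors and were analysed as given, to 2 decimals. The paper states the sequencing output. Read counts are not analysed here and whole reads could not be recovered, so the depth of each library is unknown.

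Genes with a mean TPM of at least 1 over the libraries compared were tested on log2(TPM + 0.1) with limma 3.58.1 (moderated variance with a trend on mean level, R 4.3.3), with Benjamini-Hochberg adjustment over all tested genes and a threshold of 0.05. Fold changes on this scale understate those of low genes. The fit used the 10 lean libraries, and the test of the difference between contrasts all 20. Single values were compared by exact permutation. The test was checked on simulated data. The labels number the libraries of a group separately without giving litters or days, so p-values measure only the spread between these samples.

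Members and gene lists were chosen with earlier results of these data known, and list counts carry no test. Lists were covered in part: symbols were at hand for 8 of 21 glucocorticoid-responsive and 16 of 32 CSF secretion genes. The same held for 16 of 26 ER and 18 of 25 heat shock genes. Symbols came from ID and symbol pairs in the study's supplements, which hold its most abundant genes and its lists of differences, some chosen on these libraries (2616 of 32883 IDs). Genes named are, of those with a symbol, the 12 called genes with the largest difference in each direction whose groups do not overlap, the 8 most abundant called in each, up to 4 called per list and direction, fixed marker and receptor genes, and the 5 with the smallest p between contrasts. Of these the text prints a selection. Slc12a2, Car2, Kcne2, Myh11, Hbb, Hsph1, Cacybp, Hspa4, Hspd1, Hspa5, Xbp1, Sgk1, Slc16a6, Glul, Mrpl33 and Dynlrb2 were named after their values were seen. Of the alternatives, pseudocount, filters, scaling, FPKM, quantile normalisation, variance model, array weights, a fit of all 20 libraries and each library left out were tried, and, chosen after seeing the data, the mitochondrial share without Mt-atp8.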

Additional observations from a re-analysis of the deposited data

Results flagged for a closer look

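In 13 of 194 groups of 4 or 6 rats examined (the genes named and 3 library measures, in each lean group) the highest or lowest rat stood apart from the others by Dixon's 95% criterion, where chance flags about 1 in 20 groups, or about 10. In vehicle-injected rat 14 Lepr was at 358.77 TPM, against 43.1 to 58.83 TPM in the other 3, and in rat 13 Hba-a1 was at 3302.78 TPM against 1213.2 to 1286.82 TPM and Hba-a2 at 1105.64 TPM against 409.15 to 495.78 TPM. In rat 15 Igf2 was low at 1732.45 TPM and Folr1, the folate receptor, at 1245 TPM, and in rat 16 Slc4a8 was high at 4.44 TPM and Myh11 low at 6.15 TPM. Of the untreated rats, number 2 was high for Mt-nd5 (1109.35 TPM), Mt-nd4 (2191.77 TPM) and Nfkbia (74.71 TPM), number 3 for Cacybp (166.81 TPM), number 6 was low for Atf4 (166.23 TPM) and number 1 for AC134224.1 (8.76 TPM).

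Bicdl1 was the 1 gene called for a difference between the lean contrast (vehicle) and the obese contrast (testosterone), by 1.15 on the log2 scale, a call lost in 13 of 20 fits with 1 library left out. The causes of these values were not tested.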

How the results depend on the processing

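No paired analysis was possible because the vehicle-injected and untreated rats share no replicate numbers. The count of called genes (7883) became 4256 when the filter was raised to a mean of 10 TPM, which leaves fewer genes (3087 higher and 1169 lower), and was within 1.5 times under the other settings. The direction of calls moved with the scale: median-ratio scaling gave 3851 higher and 4191 lower, and the number lower was 3807 with FPKM, 3788 after quantile normalisation and 2944 without Ttr and the mitochondrial genome. The median difference of all genes, 0.28 as deposited, was -0.027 after median-ratio scaling, 0.020 with FPKM, 0.015 after quantile normalisation, 0.16 without Ttr and the mitochondrial genome, 0.19 at the minimum of 10 TPM and 0.18 with no filter. Leaving out 1 library in turn gave 7265 to 7891 called genes. The count for the difference between contrasts (1) was 2 after median-ratio scaling and 0 to 13 with 1 library left out, the 13 without vehicle-injected rat 13.

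Of 94 named genes run through these alternatives, 81 kept direction and call with each library left out. Under the other settings, 71 kept both in each setting that included them. The minimum of 10 TPM and the setting without Ttr and the mitochondrial genome left out some of the 94. AC134224.2, AC134224.3 and Dynlrb2 were not among the 94. Aqp1 changed sign (-0.13 with FPKM, -0.18 after median-ratio scaling), though it was called higher by quantile (0.20) and without rat 5 (0.16). The others that changed sign were Ogn (-0.012 with FPKM, -0.06 after median-ratio scaling), Cacybp (-0.18 and -0.23 likewise, and -0.035 without Ttr and the mitochondrial genome), Clu (-0.026 by quantile) and, from below 0, Kcne2 (0.055 by quantile, -0.047 to 0.016 with a rat left out) and Hbb (0.11 with array weights, -0.22 to 0.26 with a rat left out). Calls lost with a rat left out were those of Ttr (7 rats), Hspe1 (7) and Ogn (6), named with the results, of Mt-atp8 and Mrpl33 (14 or 15), Zic1 (16) and Bicdl1 in the lean contrast alone (14). The mitochondrial share, 0.58 percentage points higher in the vehicle-injected rats, was 1.60 higher without Mt-atp8, a setting chosen after seeing the data. The other causes were not tested. Without read counts, precision at low TPM cannot be stated.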
